A study of Mus musculus with 165 samples.

Results

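The third hour of OHT treatment in IL3 was examined by comparing PUER cells 3h after the addition of 4-hydroxy-tamoxifen (IL3-OHT 3h, 3 libraries) with cells 2h after it (IL3-OHT 2h, 3 libraries). These 6 libraries were chosen by their titles and are 3.64% of the libraries in the series. PUER is a mouse myeloid progenitor cell line, labelled as bone marrow-derived and with the genotype Spi1-/-, that lacks the transcription factor PU.1 (gene Spi1) and carries a fusion of PU.1 with the hormone-binding part of the estrogen receptor. Both groups were cultured in medium with IL3, both received 200 nM OHT at 0h, which activates the fusion, and they differ in time only as far as the labels say. Each time point was grown in a plate of its own, so that time and plate cannot be told apart. The replicates are described as biological replicates of 1 line, from separate wells. The p-values and standard errors (SE) rest on the spread between such wells. In the main fit this spread was pooled for each gene over all groups in the fit, later times and GCSF included. It is therefore not the spread of these 6 libraries alone.

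PU.1 is an ETS-family factor required for the development of macrophages and neutrophils, and it acts on myeloid genes such as cytokine receptor, lysozyme and paired-receptor genes. IL3 signals through a receptor made of an alpha chain and the common beta chain and drives both the STAT5 and the ERK pathways, whose immediate-early targets (the EGR and AP-1 factors) are induced within minutes and then shut down by feedback inhibitors such as the DUSP phosphatases and the Sprouty and SPRED proteins. Cells given OHT in IL3 go on to become macrophages.

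The 6 libraries held 16961736 to 25776309 reads on genes, so that 3 reads, the smallest number told from 0 here, stood for a normalized count of 2.55 to 4.19 (counting error only). IL3-OHT 2h replicate 3 stood apart from the other 2h libraries (chi-square per gene 14.7 and 17.9, against 2.25 to 4.83 for the other 4 pairs of replicates in the step). Counts of the whole step are given with and without it, and counts of the gene lists below include it. Of the progenitor and granulocyte-monocyte markers (Mpo, Elane, Prtn3, Ctsg, Ms4a3, Cebpa, Csf3r, Itgam and Ly6c2) all 9 were present and 0 were called, with a summed normalized count of 197074 to 236845 at 2h and 187380 to 188814 at 3h. In contrast, the summed markers reached at most 39.1 for B cells (Pax5 and Ms4a1 were at 0), 51.7 for T and NK cells (Cd8a and Ncr1 at 0), 36.3 for fibroblasts (no marker at 0), 11.9 for eosinophils (Prg3 and Ear2 at 0), 80.4 for dendritic cells (H2-Ab1 at 0) and 192.5 for mast cells and basophils (Cpa3, Fcer1a and Prss34 at 0). The erythroid sum rested on the transferrin receptor Tfrc and ran from 3999 to 5262 at 2h and from 6057 to 6465 at 3h, while Hba-a1, Hbb-bt and Hbb-bs were at 0 and Epor, the erythropoietin receptor, was called lower (18.2 ± 4.98 at 2h and 9.74 ± 7.92 at 3h, log2 fold change -1.05). The megakaryocyte sum ran from 1773 to 1999 at 2h and from 2084 to 2340 at 3h, with Pf4 at 0. Ptprc (CD45), a marker of leukocytes, stood at 3.31 at 2h and 2.26 at 3h, near the level of 3 reads. The part of these markers in the results was not tested. In such bulk samples, fewer cells of a type and less RNA per cell cannot be told apart.

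The gene targeted in this line was read in every library. Spi1 stood at 12001, 12147 and 10868 at 2h against 12128, 12249 and 12716 at 3h, the groups overlapped, and the difference was not called (log2 fold change 0.08 ± 0.05 (SE), limma adjusted p = 0.178). The table does not separate reads of the PU.1 fusion from reads of the Spi1 locus, so this value says nothing about the deletion.

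Between 2h and 3h, more genes fell than rose. Of 17414 genes tested, 535 were called higher at 3h (3.07%) and 929 lower (5.33%) by limma (adjusted p under 0.05 with a log2 fold change beyond 0.58 either way). Without IL3-OHT 2h replicate 3 the counts were 551 and 906. With only the groups compared in the fit they were 431 and 776. The genes called higher rose by a median of 0.76 on the log2 scale (middle 50% from 0.65 to 1.02), and the genes called lower had a median of -0.92 (middle 50% from -1.38 to -0.71). Of the latter, 401 changed by more than 2-fold. The 3 libraries of each time did not overlap for 469 of the 535 higher genes and 826 of the 929 lower ones, against 18.2% and 21.5% of all genes tested. In 14 of the higher genes and 43 of the lower genes no library had more than 3 reads, and no fold change is given for any of these. Relative to the median gene (-0.03), the IL3 receptor beta chains, Egr1, Tnf and ribosome biogenesis factors stood on the rising side. Fosb, Bnip3, ERK and MAPK feedback inhibitors and glycolytic genes stood on the falling side.

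**Figure D1:**
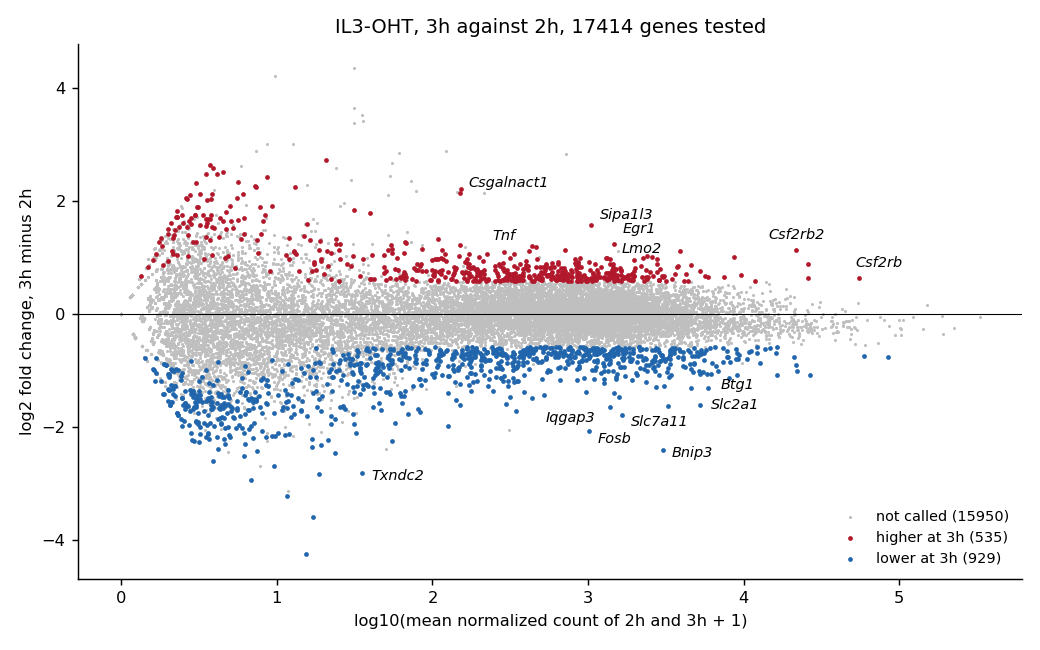
Log2 fold change of 3h minus 2h (vertical) against the log10 mean normalized count of the 2 times plus 1 (horizontal) for the 17414 genes tested in IL3-OHT. Each point is a gene, red if called higher at 3h (535), blue if called lower (929) and gray otherwise. Falls such as that of Bnip3 (-2.40) go further from 0 than the rises of genes at like levels, such as Sipa1l3 (1.58).

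The beta chains of the IL3 receptor were higher at 3h and its alpha chain was not called. Csf2rb2, the beta chain specific to IL3 in the mouse (ENSMUSG00000071714, chr15:78282507-78305721), stood at 13228, 14109.7 and 13258 at 2h against 29379, 29599 and 29936 at 3h, a 2.19-fold rise with no overlap (log2 fold change 1.13 ± 0.05 (SE), limma adjusted p = 1.59e-38). Csf2rb, the beta chain shared by the receptors for IL3, IL5 and GM-CSF, stood at 42060.1, 44711 and 42862 at 2h against 67357, 67306 and 67549 at 3h, again without overlap (log2 fold change 0.64 ± 0.04 (SE), limma adjusted p = 9.59e-26). The 2 genes are closely similar copies, and how their reads were divided is uncertain. The alpha chains did not pass: Il3ra had means of 1028 at 2h and 959 at 3h (log2 fold change -0.05) and Csf2ra of 2022 at 2h and 1692 at 3h (-0.24).

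Csf2rb, but not Csf2rb2, is a member of the list of known PU.1-dependent myeloid genes used here. Of its 41 tested members, 7 were called higher and 1 lower (19.5%, against 8.41% of all genes tested). With edgeR 4 were called higher and 1 lower, and with DESeq2 3 higher and 1 lower. The median log2 fold change was -0.03, the same as for all genes tested. Lysozyme 2 (Lyz2), a secreted antibacterial enzyme of granules, stood at 20526, 20667 and 20109.5 at 2h against 32206, 32258 and 30438 at 3h (log2 fold change 0.63 ± 0.06 (SE), limma adjusted p = 1.5e-16). Pirb, an inhibitory paired immunoglobulin-like receptor, was at 25.2, 35.2 and 34.8 at 2h against 60.5, 72.2 and 77.2 at 3h, so that every 3h library was above every 2h library (log2 fold change 1.13 ± 0.14 (SE), limma adjusted p = 3.33e-11). Both belong to families of near-identical copies (Lyz1 for Lyz2), and the same doubt on read assignment holds. The other 4 higher calls were at or near the level of 3 reads: Csf1r, the macrophage growth factor receptor, had means of 1.76 at 2h and 3.94 at 3h, Tyrobp, an adaptor of activating receptors, 0.813 at 2h and 2.59 at 3h, Lyz1 2.9 at 2h and 5.85 at 3h, and Cybb, an NADPH oxidase subunit, 0 at 2h and 0.672 at 3h. None of these 4 was called with edgeR or DESeq2 on whole reads, and Csf1r was also lost without IL3-OHT 2h replicate 3 (0.46, adjusted p = 0.514). Mpeg1, a pore-forming protein of macrophages, was lower at 3h (396, 374 and 441 at 2h against 253, 222 and 249.6 at 3h, log2 fold change -0.74 ± 0.11 (SE), limma adjusted p = 4.46e-08). The other 33 members did not pass, among them Itgam (CD11b, 591, 556 and 600 at 2h against 540.4, 566 and 573 at 3h, log2 fold change -0.06 ± 0.06), Cd14 (13749.9 at 2h and 13485 at 3h, -0.02) and Fcgr3 (1553 at 2h and 1648 at 3h, 0.09).

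The promoters of genes from both sides are shown because the fusion is a DNA-binding factor, as the 250 bases before the RefSeq start of each gene on GRCm38.p6, all on the minus strand and read 5′ to 3′ along the gene. Capitals mark GAGGAA, the core of PU.1 sites, on either strand (TTCCTC on the other strand). The regions are chr15:78305722-78305971 for Csf2rb2, chr7:3720383-3720632 for Pirb, chr17:35202008-35202257 for Tnf and chr7:19310046-19310295 for Fosb.
Csf2rb2: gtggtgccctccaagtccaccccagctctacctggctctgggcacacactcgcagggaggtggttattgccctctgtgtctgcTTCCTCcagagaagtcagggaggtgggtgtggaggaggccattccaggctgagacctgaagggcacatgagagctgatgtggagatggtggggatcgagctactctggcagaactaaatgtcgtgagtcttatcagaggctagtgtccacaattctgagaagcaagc
Pirb: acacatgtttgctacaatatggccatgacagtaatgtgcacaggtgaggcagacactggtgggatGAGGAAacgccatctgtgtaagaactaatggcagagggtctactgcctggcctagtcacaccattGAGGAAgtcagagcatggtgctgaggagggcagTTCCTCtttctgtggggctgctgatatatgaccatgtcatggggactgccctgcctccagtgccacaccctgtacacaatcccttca
Tnf: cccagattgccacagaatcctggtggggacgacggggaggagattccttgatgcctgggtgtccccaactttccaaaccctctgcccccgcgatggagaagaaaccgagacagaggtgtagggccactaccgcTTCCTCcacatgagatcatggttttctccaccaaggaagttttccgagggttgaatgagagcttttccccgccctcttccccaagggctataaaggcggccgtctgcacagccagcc
Fosb: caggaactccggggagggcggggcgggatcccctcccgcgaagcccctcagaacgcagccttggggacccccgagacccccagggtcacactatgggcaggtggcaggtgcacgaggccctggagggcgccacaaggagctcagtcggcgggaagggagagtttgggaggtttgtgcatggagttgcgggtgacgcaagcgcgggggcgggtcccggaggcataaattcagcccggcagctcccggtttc
The core occurred 1 time before the start of Csf2rb2, 3 times before Pirb, 1 time before Tnf and 0 times before Fosb. These genes were picked for display and do not show how often either side held the core. Pirb was not among the 15 largest rises. In windows of 300 bases (250 before to 50 after the start) it was in 28.3% of all 32851 RefSeq promoters. Among the 15 largest rises, 10 genes had 19 promoter entries, and 4 of these 19 held the core (4 of the 10 genes). Among the 15 largest falls, 12 genes had 15 entries, and 8 of these 15 held it (7 of the 12 genes). The AP-1 site TGACTCA or TGAGTCA (each the reverse complement of the other) was in 5.20% of all promoters. It was in 0 of these 19 promoters of rising genes and in 2 of these 15 promoters of falling genes. GTGGGCG, the EGR site, was in 7.97% of all promoters, in 3 of the 19 (those of 1 gene) and in 0 of the 15. A match is a description of the letters, not a site.

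The 15 largest rises and 15 largest falls were taken by size among called genes whose mean reached 50 normalized counts at either time and whose libraries did not overlap, a condition met by 392 higher and 593 lower genes. The first by size was Csgalnact1, which starts chondroitin sulfate chains (61.5, 56.1 and 45.5 at 2h against 257, 224 and 248 at 3h, log2 fold change 2.15 ± 0.38 (SE), limma adjusted p = 9.81e-07). Sipa1l3, related to GTPase-activating proteins for Rap, had a smaller rise at a higher count (566, 537 and 465 at 2h against 1543, 1496 and 1647 at 3h, log2 fold change 1.58 ± 0.11 (SE), limma adjusted p = 2.05e-24). Both showed a gap between the times wider than the spread of either. Hsd11b2, which inactivates glucocorticoids, came between these in size (22.4, 24.2 and 8.04 at 2h against 56.4, 62 and 59.4 at 3h, log2 fold change 1.79 ± 0.60 (SE), limma adjusted p = 0.013), but without IL3-OHT 2h replicate 3, its lowest library, the log2 fold change was 1.31 with an adjusted p of 0.132. Tifa, an adaptor that carries signals to NF-kB, rose with little spread (267, 249 and 277 at 2h against 608, 632 and 583 at 3h, log2 fold change 1.20 ± 0.08 (SE), limma adjusted p = 2.02e-24). Dctd (dCMP deaminase) rose by 1.22 on the log2 scale. Further rises were those of Stxbp4 (1.33), Celf3 (1.28), Arhgap4 (1.25), Zfp251 (1.22), Sirpb1c (1.16), Umad1 (1.14), Csf2rb2, Egr1 and Tnf. Umad1 lost its call with only the groups compared (limma adjusted p = 0.0785).

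Among the falls, Bnip3 (ENSMUSG00000078566, chr7:138890836-138909519) is a mitochondrial protein of mitophagy known as a hypoxia-induced gene, and it stood at 5209, 4723 and 5301 at 2h against 1085, 887 and 920 at 3h, 5.27-fold lower at 3h, and its groups were far apart (log2 fold change -2.40 ± 0.18 (SE), limma adjusted p = 6.14e-23). Slc7a11, the cystine transporter, stood at 2513, 2370 and 2847 at 2h against 724, 753 and 749.7 at 3h (log2 fold change -1.79 ± 0.21 (SE), limma adjusted p = 5.37e-12). Iqgap3, a scaffold of the cytoskeleton, was at 2085, 2430.5 and 1820.1 at 2h against 664, 674 and 669.5 at 3h (log2 fold change -1.65 ± 0.13 (SE), limma adjusted p = 3.1e-21). All 3 fell from a normalized count above 1800 in each 2h library to below 1100 in each 3h library. With fewer reads, Clec7a (the beta-glucan receptor Dectin-1) had means of 121.8 at 2h and 37.3 at 3h (log2 fold change -1.67 ± 0.19), Gpr35 of 106.3 at 2h and 30.4 at 3h (-1.77 ± 0.27) and Gfpt2, an enzyme of hexosamine synthesis, of 89.7 at 2h and 18.4 at 3h (-2.24 ± 0.52). Txndc2 had the most negative value of the 15 (76.9, 58.3 and 45.5 at 2h against 10.2, 10.2 and 3.96 at 3h, log2 fold change -2.81). Further falls were those of Tas2r143 (-2.11), Fosb, Apol8 (-1.97), Gm5152 (-1.92), Gm18852 (-1.72), Sptbn5 (-1.70) and Fstl3 (-1.64), of which Gm18852, a processed pseudogene, lost its call in 8 of 16 alternatives, among them each that left out 1 library (-1.80 to -1.62, adjusted p from 0.0756 to 0.114).

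Egr1 rose while the NAB corepressors of EGR factors fell. Of 6 members tested 1 was called higher and 2 lower (50.0%, against 8.41% of all genes, median -0.40). Egr1 (ENSMUSG00000038418, chr18:34859823-34864984), an immediate-early zinc finger factor, was 2.36-fold higher at 3h (973, 867 and 778 at 2h against 1939, 1977 and 2269.9 at 3h, log2 fold change 1.24 ± 0.18 (SE), limma adjusted p = 3.49e-09). Nab2, which binds EGR factors and represses their targets and is itself an EGR target, was lower (3938, 3984 and 3288 at 2h against 2164, 2028 and 2075 at 3h, log2 fold change -0.83 ± 0.12 (SE), limma adjusted p = 2.73e-09). Nab1 was also lower (1957, 1781 and 1977 at 2h against 1169, 1285 and 1224 at 3h, log2 fold change -0.63 ± 0.07 (SE), limma adjusted p = 1.51e-14). The libraries of the 2 times did not overlap for any of these 3 genes. Egr2 was at 71.3, 72.6 and 52.2 at 2h against 60.5, 53.5 and 59.4 at 3h and overlapped (log2 fold change -0.16 ± 0.22 (SE), limma adjusted p = 0.641), Egr3 had means of 82.9 at 2h and 33.1 at 3h with a log2 fold change of -1.26 that was not called by limma, and Egr4 was at or below 3 reads. With edgeR and with DESeq2 on whole reads, 1 member of the list was called higher and 3 lower.

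The AP-1 and small MAF list, of 15 members tested, had 3 called higher and 5 lower with a median of -0.01 (all genes tested, 8.41% called in either direction). Fosb (ENSMUSG00000003545, chr7:19302696-19310051), which pairs with JUN proteins, was at 1720.4, 1665 and 1520.1 at 2h against 397, 404 and 370.4 at 3h, 4.19-fold lower at 3h (log2 fold change -2.06 ± 0.18 (SE), limma adjusted p = 2.3e-18). Fos, the best known partner of JUN, was higher at 3h instead (595, 609.5 and 496 at 2h against 919.8, 963 and 1048 at 3h, log2 fold change 0.79 ± 0.12 (SE), limma adjusted p = 1.82e-08). Its rise came after a fall from a mean of 1359 at 1h to 567 at 2h. The groups of the 2 genes moved apart in opposite directions, each without overlap. Jund was lower at 3h (14241, 11669 and 7473 at 2h against 4353, 4545 and 5937 at 3h, log2 fold change -1.13 ± 0.16 (SE), limma adjusted p = 2.69e-09), with 2h libraries that differed among themselves. Atf3, a stress-induced repressor, was lower (809, 803 and 660.3 at 2h against 273, 286 and 275 at 3h, log2 fold change -1.44 ± 0.15 (SE), limma adjusted p = 2.62e-14), and so were the small MAF factors Maff (-1.36) and Mafk (-0.71). Batf and Jdp2, AP-1 members without a transactivation domain, were higher by 0.97 ± 0.12 and 0.69 ± 0.08 on the log2 scale. Jun (3961 at 2h and 3939.5 at 3h), Junb (1829.5 at 2h and 1824 at 3h) and Fosl2 (5118 at 2h and 5081 at 3h) were not called, with log2 fold changes from -0.01 to 0.00.

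**Figure D2:**
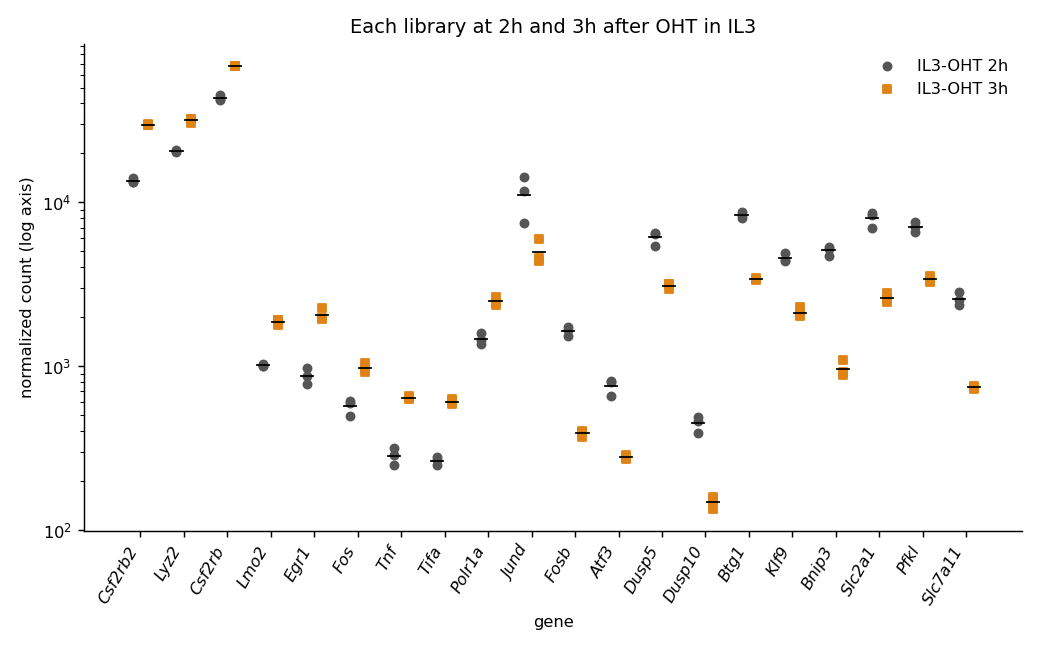
Normalized count (log axis) of each of the 3 libraries at 2h (gray circles) and at 3h (orange squares) in IL3-OHT for 20 genes, with a black line at each mean. The libraries of the 2 times are apart for each gene shown, and the 2h libraries of Jund have the widest spread (7473 to 14241).

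Feedback inhibitors of ERK and other MAP kinases were lower at 3h as far as they passed. Of 16 tested members of the ERK and MAPK feedback list, 0 were called higher and 7 lower (43.8%, against 8.41% of all genes), with a median of -0.46. The phosphatase Dusp5, which acts on nuclear ERK, stood at 6486, 6391 and 5427 at 2h against 2943, 3164 and 3176 at 3h (log2 fold change -0.98 ± 0.08 (SE), limma adjusted p = 7.85e-19). Dusp10 and Dusp16, phosphatases that act on JNK and p38, had log2 fold changes of -1.59 ± 0.23 and -1.38 ± 0.13, the former with 489, 462 and 388 at 2h against 134.3, 158.7 and 149.5 at 3h. Dusp1, an early phosphatase of several MAP kinases, stood at 2075 ± 254 at 2h and 988 ± 61.5 at 3h (SD), a log2 fold change of -1.06 ± 0.14. Spred2, a membrane inhibitor of RAF activation, was at 2263, 2202 and 1929.9 at 2h against 768, 798 and 876 at 3h (log2 fold change -1.39 ± 0.09 (SE), limma adjusted p = 3.66e-27), and Spry2 at 524 ± 26.9 at 2h and 312 ± 25.3 at 3h (-0.75 ± 0.08). Spred3 had -0.61 ± 0.17 and lost its call with edgeR and without IL3-OHT 3h replicate 2, 2h replicate 1 or 2h replicate 3 (-0.57 to -0.53). Dusp6, the cytoplasmic ERK phosphatase, was not called (4430 at 2h and 4198 at 3h, -0.08), nor was Dusp4 (419 at 2h and 412 at 3h, -0.04).

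Other immediate-early genes were likewise called in 1 direction only, 0 higher and 8 lower of 30 tested (26.7%, against 8.41% of all genes), with a median of -0.37. Btg1, an antiproliferative gene, stood at 8680.3, 7966 and 8396 at 2h against 3430.1, 3387 and 3342 at 3h (log2 fold change -1.30 ± 0.09 (SE), limma adjusted p = 1.9e-25), and its groups were more than 4000 normalized counts apart. Ier5 was at 6082, 5940.3 and 4468 at 2h against 2661, 2791 and 3107 at 3h (log2 fold change -0.94 ± 0.10 (SE), limma adjusted p = 2.01e-14) and Trib1, a pseudokinase that targets C/EBPα for degradation, at 4295, 4381 and 3309 at 2h against 2236, 2225 and 2430.3 at 3h (log2 fold change -0.79 ± 0.09 (SE), limma adjusted p = 1.02e-13). The remaining calls were Gadd45b (-0.84), Gadd45g (-0.87), Per1 (-0.73), Sgk1 (-0.63) and the low Btg2 (-1.10). Of these, Btg2 was lost without IL3-OHT 3h replicate 3 (-0.79) or 2h replicate 1 (-0.88) and Sgk1 without 2h replicate 1 (-0.58). With only the groups compared, Per1 and Btg2 lost their calls (limma adjusted p = 0.0801 and 0.131). Ier2 (1916 at 2h and 2083 at 3h), Ier3 (1671 at 2h and 1585 at 3h) and Nr4a2 (154.2 at 2h and 154.2 at 3h) were among the 22 that did not pass.

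Krüppel-like factors showed 1 higher and 4 lower calls of 11 tested (45.5%, against 8.41% of all genes, median -0.34). Klf9 was at 4872, 4415 and 4389 at 2h against 2013, 2045 and 2294 at 3h (log2 fold change -1.11 ± 0.07 (SE), limma adjusted p = 1.77e-28), and log2 fold changes were -0.82 ± 0.06 for Klf13, -0.70 ± 0.05 for Klf3 and -0.62 ± 0.09 for Klf5, which was lost without IL3-OHT 3h replicate 1 (-0.57) or 2h replicate 1 (-0.55). Klf2 was higher (829, 811 and 621 at 2h against 1006, 1121 and 1388 at 3h, log2 fold change 0.63 ± 0.15 (SE), limma adjusted p = 0.000189), with no call without IL3-OHT 2h replicate 3 (0.50) or 3h replicate 3 (0.51). Klf4 was at 0 in all 6 libraries.

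Among 22 tested chemokines and cytokines, Tnf was the only one called higher. This inflammatory cytokine stood at 316, 288 and 248 at 2h against 628, 642 and 653 at 3h, a 2.26-fold rise without overlap (log2 fold change 1.18 ± 0.10 (SE), limma adjusted p = 2.89e-18). Hbegf, an EGF receptor ligand, was lower (475, 442 and 478 at 2h against 187.7, 237 and 184.2 at 3h, log2 fold change -1.20 ± 0.38 (SE), limma adjusted p = 0.00751), as was the angiogenic factor Vegfa (9435, 9028 and 8206 at 2h against 6134, 5682 and 5857 at 3h, log2 fold change -0.59 ± 0.13 (SE), limma adjusted p = 9.8e-05). The Vegfa call was lost without IL3-OHT 3h replicate 2 (-0.57), 2h replicate 1 (-0.55) or 2h replicate 2 (-0.58). The median of the list was -0.30, and 13.6% of its tested members were called, against 8.41% of all genes. Ccl3 (2437 at 2h and 2054 at 3h), Ccl4 (504 at 2h and 487 at 3h) and Il1rn (1097 at 2h and 1200.4 at 3h) did not pass, and 13 of the 32 listed were at or below 3 reads in all 6 libraries. Of 17 NF-kB factors and feedback genes (5.88% called), 0 were called higher and 1 lower, Traf1 (68.5, 81.4 and 80.4 at 2h against 31.8, 26.3 and 26.7 at 3h, log2 fold change -1.41 ± 0.52 (SE), limma adjusted p = 0.0249), and the median was 0.00. The Traf1 call was lost without IL3-OHT 3h replicate 2 or 3, or 2h replicate 2 or 3 (adjusted p from 0.0608 to 0.0651). It was kept with only the groups compared, edgeR and DESeq2. The inhibitor Nfkbia had means of 5330.5 at 2h and 3739 at 3h and a log2 fold change of -0.51, short of the threshold.

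Of 32 tested transcription factors of the macrophage and neutrophil fates, 1 was called higher and 3 lower (12.5%, against 8.41% of all genes), with a median of -0.04. Cebpd, a C/EBP factor of inflammatory and myeloid genes, rose (1477, 1417 and 1417 at 2h against 2094, 2114 and 2395 at 3h, log2 fold change 0.61 ± 0.10 (SE), limma adjusted p = 7.15e-08), with 0.55 and no call without IL3-OHT 3h replicate 3. Bhlhe40, a basic helix-loop-helix repressor, fell (4683, 4594 and 3707 at 2h against 2278, 1975 and 2075 at 3h, log2 fold change -1.03 ± 0.13 (SE), limma adjusted p = 6.58e-11), Id2, an inhibitor of E proteins, was called lower (-0.61 ± 0.12, lost without 3h replicate 3 at -0.54 or 2h replicate 3 at -0.55), and so was the low Irf4 (20.9 at 2h and 5.66 at 3h). Cebpa, which drives the neutrophil fate, stood at 26179, 23503 and 16880.5 at 2h against 15872, 16393 and 19469 at 3h with overlap and was not called (log2 fold change -0.35 ± 0.13 (SE), limma adjusted p = 0.024). Gfi1, a repressor of the macrophage program, was at 532, 550.1 and 470.1 at 2h against 647, 602 and 664 at 3h, which did not overlap but was below the fold threshold (log2 fold change 0.30 ± 0.06 (SE), limma adjusted p = 1.41e-05). Zeb2 was at 7927, 8068 and 9718 at 2h against 7442, 7402 and 7599 at 3h (log2 fold change -0.19 ± 0.07 (SE), limma adjusted p = 0.026), and Irf8, a macrophage-fate factor, was low (8.38, 7.7 and 6.7 at 2h against 10.2, 9.34 and 3.96 at 3h, log2 fold change -0.04 ± 0.42).

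Progenitor genes held 1 call in each direction of 20 tested (10.0%, near the 8.41% of all genes, median 0.10). Lmo2, a bridging partner of TAL1 and GATA factors, stood at 1006, 996 and 1027 at 2h against 1787, 1897 and 1912 at 3h (log2 fold change 0.88 ± 0.05 (SE), limma adjusted p = 1.23e-31), and the ETS factor Erg at 756, 775 and 814 at 2h against 528, 517 and 522 at 3h, close to the threshold (log2 fold change -0.58 ± 0.07 (SE), limma adjusted p = 3.96e-13) and lost without IL3-OHT 3h replicate 2 (-0.57), 3h replicate 3 (-0.58) or 2h replicate 3 (-0.55). Kit, the stem cell factor receptor, had 3706 at 2h and 5468 at 3h and 0.56, and Sox4 5212, 4478 and 4057 at 2h against 3160.4, 3224 and 3814 at 3h, without overlap and below the fold threshold (log2 fold change -0.43 ± 0.11 (SE), limma adjusted p = 0.000613). Among 20 cytokine-STAT response genes (5.00% called, against 8.41% of all genes, list median 0.07) Socs1, a feedback inhibitor of JAK kinases, was the only call (345, 287 and 211.6 at 2h against 398, 412 and 504 at 3h, log2 fold change 0.66 ± 0.18 (SE), limma adjusted p = 0.00154). The Socs1 call was lost without IL3-OHT 2h replicate 3 (0.47) or 3h replicate 3 (0.55). Cish (5869.5 at 2h and 7225 at 3h), Pim1 (11476 at 2h and 14666 at 3h) and Socs3 (14169.8 at 2h and 16817 at 3h) did not pass. The primary granule proteins, of which Elane had means of 109301 at 2h and 91890.1 at 3h and Ctsg of 35990.4 at 2h and 30522 at 3h, had 0 calls of 10 (9 of 10 values negative, median -0.23).

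Genes of sugar uptake and glycolysis were called in 1 direction only. Of 19 members tested, 0 were called higher and 5 lower (26.3%, against 8.41% of all genes). A negative value was found for 17, and the median was -0.45 against -0.03 for all genes. Slc2a1, the glucose transporter GLUT1, stood at 8567, 8337 and 6943 at 2h against 2778, 2441 and 2561 at 3h, 3.06-fold lower at 3h (log2 fold change -1.61 ± 0.16 (SE), limma adjusted p = 2.03e-15). Pfkl, the liver-type phosphofructokinase, was at 7561, 7031 and 6613 at 2h against 3531, 3256 and 3356 at 3h (log2 fold change -1.06 ± 0.12 (SE), limma adjusted p = 2.63e-12). Tpi1 (16395 ± 1866 at 2h and 9024 ± 623 at 3h, -0.86 ± 0.12), Pgam1 (13394 ± 1137 at 2h and 7699.7 ± 183.4 at 3h, -0.80 ± 0.09) and Ldha (17855 ± 1125 at 2h and 11829.8 ± 287 at 3h, -0.59 ± 0.10) were the other calls, of which Ldha was lost with edgeR and without IL3-OHT 3h replicate 2 (-0.58) or 2h replicate 1 (-0.55). Gapdh (215511 at 2h and 168139.7 at 3h, -0.35), Pgk1 (71249 at 2h and 49048 at 3h, -0.54) and Aldoa (61284 at 2h and 42343 at 3h, -0.53) were lower in value and below the fold threshold. Hk2, a hexokinase, had a positive value (3502 at 2h and 4694 at 3h, 0.42). The summed normalized count of the list ran from 649239 to 777304 at 2h and from 535500 to 549182 at 3h.

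Ribosome biogenesis factors had calls on the other side only. Of 35 tested, 7 were called higher and 0 lower (20.0%, against 8.41% of all genes), 33 had a positive value, and the median was 0.37. Polr1a, the largest subunit of RNA polymerase I, stood at 1359.8, 1593 and 1449 at 2h against 2358, 2439.6 and 2650.2 at 3h (log2 fold change 0.76 ± 0.07 (SE), limma adjusted p = 1.27e-17). Nop2, an rRNA methyltransferase, was at 1916, 1971 and 1804 at 2h against 3025, 2915 and 3032 at 3h (log2 fold change 0.66 ± 0.07 (SE), limma adjusted p = 6.69e-15), and Utp20 at 1431, 1481 and 1677 at 2h against 2413, 2401 and 2456 at 3h (log2 fold change 0.67 ± 0.09 (SE), limma adjusted p = 2.36e-10). The libraries of the 2 times were apart for all 3 genes. Wdr12 (0.70 ± 0.10) and Bop1 (0.68 ± 0.09), which act together in large-subunit assembly, Rrp9 (0.64 ± 0.10) and Dkc1 (0.59 ± 0.09) were the other calls, of which Rrp9 was lost without IL3-OHT 2h replicate 3 (0.56) and Dkc1 without 3h replicate 1 (0.57), 2h replicate 1 (0.58) or 2h replicate 2 (0.56). Npm1 (11542 at 2h and 10306 at 3h, -0.16) and Ncl (20807 at 2h and 21949 at 3h, 0.08) did not pass. The MYC antagonists Mxd1 (1855, 1819.8 and 1674 at 2h against 759, 799 and 729.9 at 3h, log2 fold change -1.22 ± 0.09 (SE), limma adjusted p = 3.54e-24) and Mxi1 (-0.73 ± 0.07) were the 2 calls, both lower, among 10 members of the Myc, Max and Mxd network (20.0% called, against 8.41% of all genes, median -0.09). Myc itself was not called (4276 at 2h and 4728 at 3h, 0.15).

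**Figure D3:**
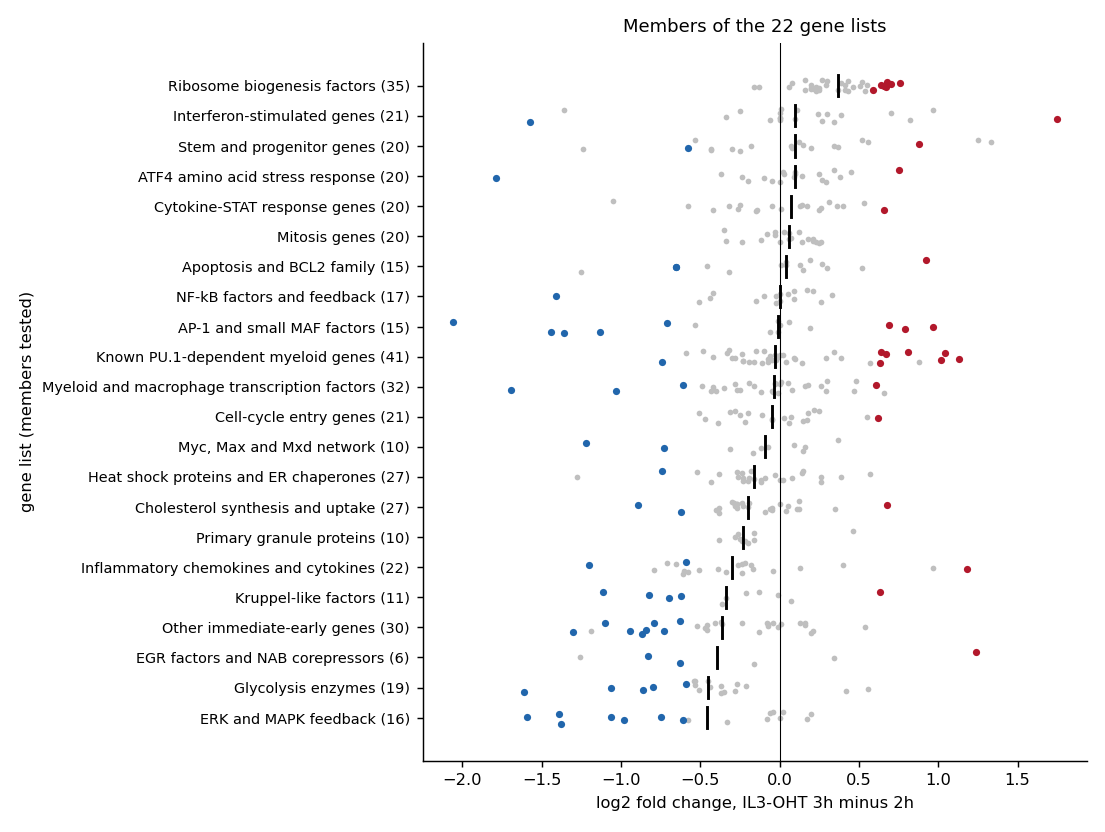
Log2 fold change of 3h minus 2h in IL3-OHT (horizontal) for the tested members of 22 gene lists (vertical, number tested in brackets), ordered by median. Each point is a gene, red if called higher, blue if called lower and gray otherwise, and the black bars are medians, from -0.46 for ERK and MAPK feedback to 0.37 for ribosome biogenesis factors.

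In the remaining lists the share called ran from 0 for mitosis genes to 20.0% for the BCL2 family, against 8.41% of all genes. Cholesterol synthesis and uptake had 1 higher and 2 lower of 27 (11.1%, median -0.20). Scap, the sterol sensor that escorts SREBP, rose (1589, 1626 and 1350 at 2h against 2391, 2349 and 2550.2 at 3h, log2 fold change 0.68 ± 0.09 (SE), limma adjusted p = 1.38e-10). Mvd, the mevalonate pathway decarboxylase, fell (3368, 3244 and 2656 at 2h against 1622, 1749 and 1594 at 3h, log2 fold change -0.89 ± 0.10 (SE), limma adjusted p = 1.15e-13). Msmo1 was also called lower (-0.62 ± 0.09) and lost its call with edgeR (-0.57). Of 20 genes of the ATF4 amino acid stress response (10.0% called, median 0.09), Sesn2 was higher (1131, 1146 and 956 at 2h against 1786, 1733 and 1902 at 3h, log2 fold change 0.75 ± 0.11 (SE), limma adjusted p = 2.29e-08) and Slc7a11 lower, while Atf4 itself had means of 8974 at 2h and 8988 at 3h and was not called. In the BCL2 family (15 tested, median 0.04) Bid, a death agonist, was higher (428, 458 and 446 at 2h against 816, 859 and 853 at 3h, log2 fold change 0.92 ± 0.07 (SE), limma adjusted p = 8.29e-24), and the survival factor Bcl2 (-0.65 ± 0.10, lost without IL3-OHT 3h replicate 1 at -0.57) and the death agonist Bcl2l11 (BIM, 4752, 4767 and 4879 at 2h against 3044, 3047 and 3051 at 3h, log2 fold change -0.65 ± 0.05 (SE), limma adjusted p = 8.67e-22) were lower. Ccne1 (cyclin E1, 226 ± 11.9 at 2h and 348 ± 13.7 at 3h, 0.62 ± 0.08) was the only call among 21 cell-cycle entry genes (median -0.05), and 0 of 20 mitosis genes were called (median 0.06). Dnajb9, an ER cochaperone, was the only call among 27 heat shock proteins and ER chaperones (median -0.16, 3537, 3003 and 3538 at 2h against 1994, 2053 and 1953 at 3h, log2 fold change -0.74 ± 0.09 (SE), limma adjusted p = 2.74e-11). Of 21 interferon-stimulated genes (9.52% called), Ifi44 (0 at 2h and 2.89 at 3h) and Cmpk2 (11.8 at 2h and 3.16 at 3h) were called in opposite directions, both with few reads and both lost without IL3-OHT 3h replicate 3 (1.22 and -1.35, list median 0.10). Across the 22 lists, 76 of 450 distinct genes tested were called, 28 higher and 48 lower (16.9%, against 8.41% of all genes). The lists were chosen with earlier results of these data known, so this share only describes them. Some list counts moved without IL3-OHT 2h replicate 3. Glycolysis then had 7 lower calls, cell-cycle entry 2 higher and 1 lower, and the PU.1-dependent list 7 higher and 2 lower. Cytokine-STAT genes had 0 calls, ERK and MAPK feedback 6 lower and ribosome biogenesis 6 higher.

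By number of calls, the hour stands between a larger and a smaller step. From 1h to 2h, 1103 genes were called higher and 1537 lower (6.33% and 8.83%), and from 3h to 4h 1.10% of genes were called, 42 higher (0.241%) and the rest lower (0.856%). These comparisons share libraries with the step, so their values are given side by side only. The mean normalized counts at 0h, 1h, 2h, 3h, 4h and 8h were 2944, 7970.5, 873, 2062, 2699 and 1471 for Egr1, which fell before it rose. They were 249, 302, 284, 641, 794 and 590.2 for Tnf, 2605, 4185, 13532, 29638, 35845 and 36768 for Csf2rb2 and 1631, 1349, 1897, 2991, 3788 and 3813 for Nop2. For Fosb they were 10336, 18821, 1635, 390.4, 250.4 and 123.6, a fall that began an hour earlier. The corresponding means were 11392, 12750.3, 5078, 964, 719 and 2854 for Bnip3, 15390.5, 19538, 7949, 2593, 2221 and 7163 for Slc2a1 and 1879, 2124, 3089, 1655, 1142 and 829.9 for Mvd, of which Mvd was at its highest at 2h. The 8h means of Bnip3 and Slc2a1 were above those of 4h. Fos, Klf2 and Socs1 were, like Egr1, called lower from 1h to 2h before they rose. Means at 0h, 1h, 2h and 3h were 602, 1359, 567 and 977 for Fos. For Klf2 they were 1112, 1594, 754 and 1172, and for Socs1 517, 916, 281 and 438. Sipa1l3 and Sesn2 were called lower from 1h to 2h as well (-0.86 and -0.97).

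The comparison of 4h with 1h uses none of the 6 libraries. In it 1971 genes were called higher (11.3%) and 3155 lower (18.1%), 29.4% in all. Of the 535 genes higher at 3h than at 2h, 341 (63.7%) were called higher and 10 (1.87%) lower at 4h than at 1h, and of the 929 lower genes 709 (76.3%) were called lower and 11 (1.18%) higher. The medians of the 2 sets in that comparison were 0.85 and -1.34, against -0.10 for all genes. The 341 made up 17.3% of all genes higher at 4h, and the 709 made up 22.5% of those lower. Egr1 was among the 10, with a log2 fold change of -1.56 (limma adjusted p = 1.29e-13) from 1h to 4h. Csf2rb2 had 3.10 (limma adjusted p = 1.18e-83), Tnf 1.40 (limma adjusted p = 8.22e-24), Bnip3 -4.17 (limma adjusted p = 4.16e-43) and Fosb -6.23 (limma adjusted p = 1.25e-58).

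**Figure D4:**
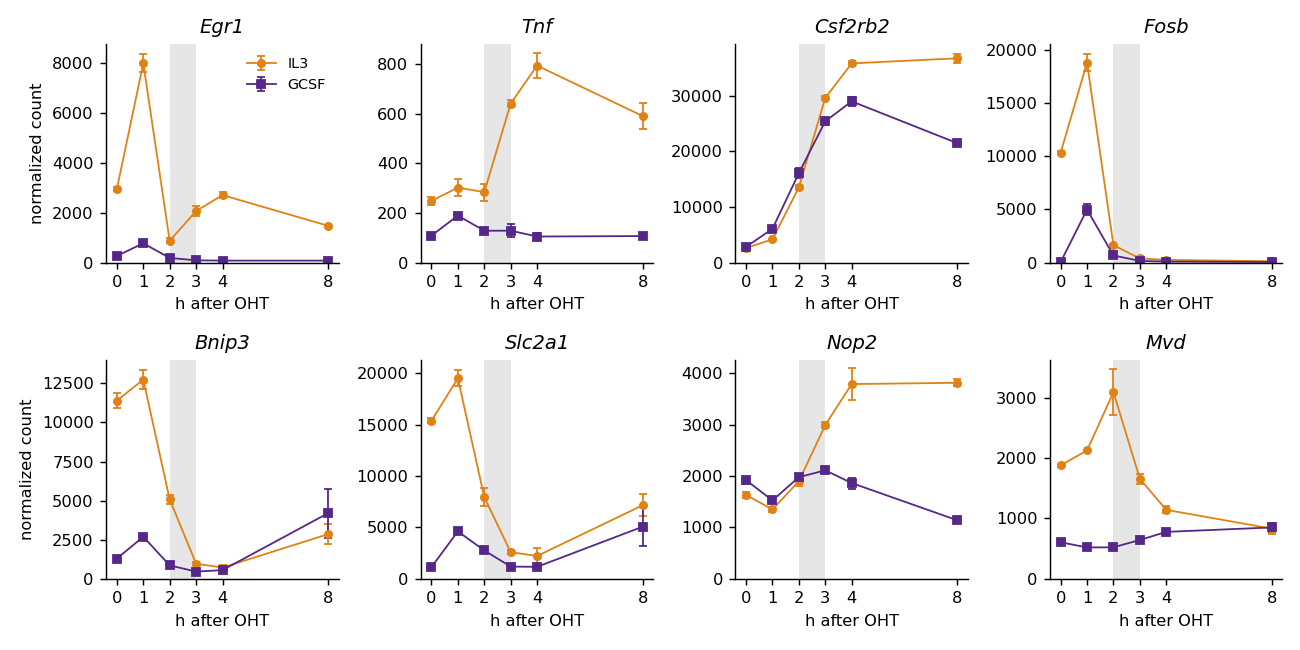
Mean normalized count (vertical, linear from 0) at 0h, 1h, 2h, 3h, 4h and 8h after OHT (horizontal) in IL3 (orange circles) and GCSF (purple squares) for 8 genes, with bars of 1 SD (n = 3). The gray band is the hour from 2h to 3h. In IL3 Egr1 goes from 873 to 2062 in that hour and Fosb from 1635 to 390.4, and in GCSF Egr1 goes from 184.2 to 90.1.

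Whether the hour differed between the cytokines was examined with the same step in GCSF-OHT, in cells given GCSF in place of IL3 for 48 h and then 100 nM OHT. Cytokine, pre-treatment and OHT dose thus cannot be told apart. From 2h to 3h in GCSF-OHT, 498 genes were called (2.86%), 289 of them lower (1.66%) and the rest higher (1.20%), with 124 higher without GCSF-OHT 2h replicate 1 and 136 without 3h replicate 2. The 2 steps share no library. Of the 535 genes higher in IL3, 54 (10.1%) were called higher and 3 (0.561%) lower in GCSF, which is 25.8% of all genes higher in GCSF. Of the 929 lower in IL3, 15.8% were called lower and 2 genes (0.215%) higher, the former being 50.9% of all genes lower in GCSF. The difference of the steps itself was called for 517 genes (2.97%), of which 210 were more positive in IL3 (1.21%) and 307 more negative (1.76%). The more positive share was thus 40.6%, against 61.8% with edgeR, which called 495 genes.

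Egr1 moved in opposite directions in the 2 cytokines. Its means at 0h, 1h, 2h and 3h in GCSF were 265, 771, 184.2 and 90.1, so that it was called lower in the hour (log2 fold change -1.02 ± 0.18 in GCSF-OHT, difference of the steps 2.26 ± 0.25, limma adjusted p = 4.67e-12). Fos, which rose in IL3, had means of 190.5, 1152, 524 and 422 in GCSF and was not called there (log2 fold change -0.31 ± 0.12 in GCSF-OHT, difference of the steps 1.10 ± 0.17, limma adjusted p = 2.7e-07). Tnf stood at 108.3, 189.5, 128.2 and 128.5, close to equal in value at 2h and 3h (log2 fold change -0.01 ± 0.10 in GCSF-OHT, difference of the steps 1.19 ± 0.15, limma adjusted p = 3.23e-10). Tifa had at 2h in GCSF a mean close to that at 3h in IL3 (167.1, 370.1, 605 and 647, difference of the steps 1.10 ± 0.12, limma adjusted p = 2.16e-12). Lmo2, which rose in IL3, had higher means in GCSF at each of these times (4558, 4121, 4509 and 5293, difference of the steps 0.65 ± 0.07, limma adjusted p = 9.71e-13).

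Several falls also differed. Bnip3, called lower in both, had means of 1293, 2690.2, 858 and 458 in GCSF (log2 fold change -0.91 ± 0.18 in GCSF-OHT, difference of the steps -1.49 ± 0.25, limma adjusted p = 3.14e-06). Atf3 was not called there (log2 fold change -0.04 ± 0.15 in GCSF-OHT, difference of the steps -1.40 ± 0.22, limma adjusted p = 3e-07), nor was Iqgap3 (log2 fold change -0.26 ± 0.13 in GCSF-OHT, difference of the steps -1.38 ± 0.18, limma adjusted p = 3.75e-09). Mvd had a positive value in GCSF that was not called (log2 fold change 0.30 ± 0.10 in GCSF-OHT, difference of the steps -1.19 ± 0.14, limma adjusted p = 2.43e-11). For other genes the steps had like values and no difference was called: Fosb had a log2 fold change -2.07 ± 0.18 in GCSF-OHT (difference of the steps 0.01 ± 0.26, limma adjusted p = 0.998), Jund a log2 fold change -1.30 ± 0.16 in GCSF-OHT (difference of the steps 0.16 ± 0.23, limma adjusted p = 0.735) and Slc2a1 a log2 fold change -1.21 ± 0.16 in GCSF-OHT (difference of the steps -0.40 ± 0.23, limma adjusted p = 0.288). Csf2rb2 rose in both, by less in GCSF (log2 fold change 0.66 ± 0.05 in GCSF-OHT), and the difference was below the fold threshold (difference of the steps 0.47 ± 0.07, limma adjusted p = 3.24e-07).

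By the rule for the difference, the 8 genes with the most positive values were Exosc6, Gm49342, Egr1, Filip1, Sh2d4b, Slc29a2, Tnf and F3 (tissue factor), and the 8 with the most negative were Gm9794, Gm10132, Rps19-ps6, Rgs16, Gm14303, Gm2606, Rpl37rt and Rps13-ps2. Of the latter, 7 are annotated as processed pseudogenes, whose reads cannot be told with certainty from those of the parent genes, and for each of the 8 the GCSF value was positive (from 0.97 to 1.83) while the IL3 value was not called. Exosc6 rested on GCSF-OHT 2h and was at or below 3 reads in the IL3 libraries. Gm49342 had an IL3-OHT 2h library at 0 (0, 123.2 and 316 at 2h against 133.3, 171.5 and 165.4 at 3h), without which its IL3 value was -0.34.

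**Figure D5:**
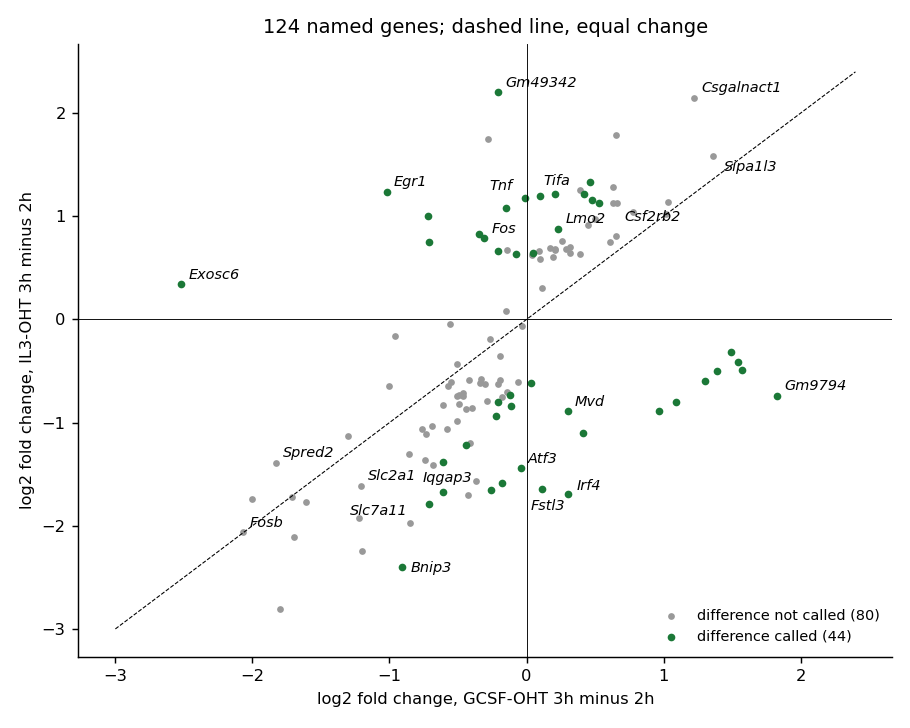
Log2 fold change from 2h to 3h in IL3-OHT (vertical) against that in GCSF-OHT (horizontal) for the 124 genes named by rule. Green points are genes whose difference of steps was called (44), gray points the others, and the dashed line marks equal change. Egr1 stands at 1.24 in IL3 and -1.02 in GCSF, and Fosb lies on the line (-2.06 and -2.07).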

How the data were processed

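RNA-seq of polyA RNA was read from a table of 36255 genes by 165 libraries. The deposited values are a signal: gene counts that the authors obtained with Salmon on GRCm38 and divided by DESeq2 size factors. All values were whole multiples of 1 read (100% within a relative tolerance of 1e-06), so reads were recovered for count tests. The strand setting was not given in the sources used here.

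Samples were grouped by title. limma 3.58.1 (R 4.3.3) was fitted to log2(normalized count + 1) with 1 mean per group, after keeping genes that reached a normalized count of 5 in any library. The IL3-OHT 96h and 144h libraries were left out of the fit. This replaces the DESeq2 Wald test of the study's methods, since the values are not counts. Fold changes on this scale understate low genes. A gene was called at a Benjamini-Hochberg adjusted p under 0.05 with a log2 fold change beyond 0.58 either way. Alternatives were other pseudocounts, filters, scaling, sets of libraries, a replicate block, leaving out each library, and edgeR 4.0.16 and DESeq2 1.42.0 on recovered reads. The fits were tested on simulated data.

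Named genes were the 15 largest rises and falls with a mean of at least 50 and no overlap, called list members, 10 genes given in every case (Egr1, Egr2, Nab2, Zeb2, Irf8, Gfi1, Cebpa, Sox4, Itgam and Spi1), and 8 genes per direction for the IL3 and GCSF difference. Some of these genes and markers are not reported here. Members and lists were chosen with earlier results of these data known. Promoter sequences are from RefSeq (GRCm38.p6). Intervals for 3 reads cover counting error only.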

Additional observations from a re-analysis of the deposited data

Results flagged for a closer look

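The results below are named genes whose change from 2h to 3h differed between IL3-OHT and GCSF-OHT by a test of the difference itself (limma, adjusted p under 0.05 and absolute log2 difference over 0.58). No group here had more than 3 libraries, so single outlying libraries were not tested for. Values are the IL3 change minus the GCSF change on the log2 scale, and OHT dose and pre-treatment differ with the cytokine, so their parts cannot be told apart.

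Among early-response and signaling genes the difference was 2.26 for Egr1, 1.10 for Fos, -1.40 for Atf3, -1.41 for Dusp10, -0.77 for Dusp16, -0.72 for Ier5, -1.51 for Btg2, -0.73 for Gadd45b and 0.72 for Klf2. Of these, Btg2 was near the threshold (adjusted p = 0.0478) and was called in 8 of 23 settings, the main one included, with adjusted p from 0.0173 to 0.188, and Klf2 was called in 20 of 23.

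For cytokine, receptor and transcription factor genes it was 1.19 for Tnf, 1.10 for Tifa, 0.86 for Socs1, 0.68 for Sirpb1c, -1.06 for Clec7a, 0.65 for Lmo2, -0.78 for Mxd1, -0.61 for Mxi1 and -1.99 for Irf4. Irf4 is low in both cytokines (means of 20.9 at 2h and 5.66 at 3h in IL3, 0.54 and 0.834 in GCSF) and was called in 7 of 22 settings. Socs1 was called in 19 of 23, and Sirpb1c and Mxi1 each in 21 of 23.

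In metabolism and RNA processing the values were -1.19 for Mvd, -0.65 for Msmo1, -0.59 for Pgam1, -1.08 for Slc7a11, 0.80 for Dctd, 1.24 for Slc29a2 (a nucleoside transporter), 0.59 for Rrp9 and 2.86 for Exosc6. Exosc6, an exosome subunit, is at or below 3 reads in the 6 IL3 libraries and had an adjusted p of 0.0476 (called in 7 of 22 settings). Rrp9 was called in 18 of 23 and Pgam1 in 17 of 23.

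Among the other named genes the values were -1.49 for Bnip3, -1.38 for Iqgap3, -1.75 for Fstl3, 0.87 for Stxbp4, 1.01 for Zfp251, 1.73 for Filip1, 1.46 for Sh2d4b, 1.18 for F3, 2.41 for Gm49342 (called in 18 of 23 settings, from -0.13 to 4.02) and -1.90 for Rgs16 (called in 18 of 23). F3 was called in 22 of 23.

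The 7 genes annotated as processed pseudogenes had negative values, -2.56 for Gm9794, -2.06 for Gm10132, -1.95 for Rps19-ps6, -1.89 for Gm14303, -1.88 for Gm2606, -1.86 for Rpl37rt and -1.81 for Rps13-ps2, with adjusted p from 0.00393 to 0.0324. Each lost its call in some of the 23 settings. Rps13-ps2 was called in 14, Rps19-ps6 in 17, Gm14303 in 19, Gm9794 and Gm10132 in 20, Gm2606 in 21 and Rpl37rt in 22, with adjusted p up to 0.113. Their reads cannot be told with certainty from those of the genes they copy, and the spread of their IL3-OHT 2h libraries ran from wide in Gm9794 (148.1, 506 and 445) to narrow in Gm2606 (245, 255 and 221.0). At GCSF-OHT 2h the spread was wide in both, with means of 175.3 ± 127.3 (SD) for Gm9794 and 66.0 ± 42.5 (SD) for Gm2606. What separates the 2 cytokines here was not tested.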

How the results depend on the processing

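The counts of the step stayed within 1.5 times of 535 higher and 929 lower in every alternative run, from 528 to 635 and 844 to 930 with 1 library left out, and from 431 to 649 and 704 to 1098 otherwise. The calls shared with each alternative were 73.4% to 99.8% of all calls, with 0 of opposite sign. In GCSF-OHT the higher count ran from 124 to 284 and the lower from 246 to 284 with 1 library left out. The difference of the steps was called for 421 to 565 genes with 1 library left out and 397 to 637 otherwise, and edgeR gave 306 more positive of 495 in place of 210 of 517. The 3h to 4h step, whose alternatives were chosen after seeing the data, ran from 20 to 119 higher and up to 241 lower. Of 107 called named genes 78 were called in all 16 alternatives, and Gm49342 ran from -0.34 to 3.81 with 1 library left out, reversed without IL3-OHT 2h replicate 1. Beyond the smaller number of libraries, the cause was not tested. Genes within 3 reads are limited by depth.

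With the replicate block the step gave 536 higher and 933 lower calls, and of the named genes Csf1r lost its call (adjusted p = 0.0507). Samples that share a number correlated at 0.028, 0.187 and -0.0458, so the numbers were not taken as pairs.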
